A study of Caenorhabditis elegans with 4 samples.

Results

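The MATH and BATH genes of *Caenorhabditis elegans* were examined in gonad mRNA. A gene was taken as a member when its name in the deposited table was math or bath followed by a number, which gave 86 of the 20389 genes listed, 49 math genes and 37 bath genes. The mRNA came from dissected gonads of adult hermaphrodites, with 2 libraries per genotype, each from 400 gonad arms and 1.2 micrograms of RNA. The met-2;him-8 animals carried met-2(n4256) and him-8(tm611), and the him-8 animals carried him-8(tm611) alone, so that both genotypes lacked the zinc finger protein that lets the X chromosomes pair and synapse. The comparison asks whether transcripts changed when the H3K9 methyltransferase MET-2 was also missing. The study describes the met-2 animals as fertile and recently derived from a balanced strain, and the dissected gonad arms as mostly germ cells with some somatic sheath and spermathecal cells.

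The MATH (meprin and TRAF homology) domain is a fold that binds short peptides of other proteins. In BATH proteins it is joined to a BTB domain, which binds the scaffold protein CUL-3, so that a BATH protein can hold a substrate against a CUL-3 ubiquitin ligase. The best known case in the worm germ line and embryo is MEL-26, a MATH and BTB protein with another kind of name, which brings the katanin subunit MEI-1 to CUL-3 for degradation after meiosis. The family is much larger in *C. elegans* than in mammals, and for most of its members no function is known. MATH-33 differs from the others in that it is a deubiquitinase, the worm counterpart of mammalian HAUSP.

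The libraries held 14255714 to 49848077 reads each, and the deepest and the shallowest library were both him-8. Levels are given as reads per 1000000 reads with TMM scaling (CPM), and levels of different genes are compared only as CPM per kilobase of exon. Transcripts of met-2 were at 25.8 and 52.8 CPM in met-2;him-8, against 127 and 212 CPM in him-8, lower in both libraries labelled as mutant for met-2 (log2 ratio -2.11, standard error (SE) 0.46, adjusted p = 0.886 by edgeR and 0.0269 by DESeq2). Germ cell and oocyte markers were abundant in every library, with summed levels of 4619 and 5925 CPM for 6 germ cell genes in met-2;him-8, against 4669 and 5239 CPM in him-8. The 4 oocyte genes summed to 8228 and 15805 CPM in met-2;him-8, against 8199 and 8330 CPM in him-8, so that met-2;him-8 replicate 2 stood apart. Most of this came from cbd-1, at 8357 CPM in that library, against 2328 to 3596 CPM in the others. There rme-2 and puf-5 were also at their highest, but oma-1 was at its lowest (494 CPM). Sums of intestine and body wall muscle markers were higher in met-2;him-8. The 5 intestinal genes summed to 967 to 1690 CPM in met-2;him-8, against 401 to 648 CPM in him-8, with elt-2 under 1 CPM in each library. Of these, vit-2, vit-6 and asp-1 were higher in met-2;him-8 without overlap, ges-1 overlapped, and elt-2 had its higher mean in him-8. The 3 body wall muscle genes summed to 60.6 to 178 CPM in met-2;him-8, against 42.2 to 46.4 CPM in him-8, and all 3 were higher in met-2;him-8 without overlap. The 6 sperm genes summed to 12.9 to 36.7 CPM in met-2;him-8 and 13.4 to 27.5 CPM in him-8, and of the 3 hypodermal genes dpy-7 and rol-6 were at or near 0, while the cuticle collagen gene col-19 was at 209 and 192 CPM in met-2;him-8, against 218 and 89.1 CPM in him-8. The 5 sheath and spermatheca genes summed to 357 to 1511 CPM in met-2;him-8 and 532 to 770 CPM in him-8. Nearly all of each sum was fln-1, at 345 and 1502 CPM in met-2;him-8, against 523 and 759 CPM in him-8. The part of these differences in the results below was not tested, and in bulk gonads fewer cells of a type and less RNA per cell cannot be told apart.

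Most math genes had few reads in these gonads, and most bath genes had many. Over the 4 libraries a math gene had a median of 12 reads (0 to 43512), and a bath gene a median of 1388 reads (2 to 39036). At least 1000 reads were counted for 1 of the 49 math genes and 19 of the 37 bath genes, and under 100 reads for 45 math genes and 8 bath genes. The exception among the math genes was math-33. The other 48 math genes together held 1355 of the 259344 reads of all members (0.522%), and none of them averaged above 2.71 CPM. Lengths of exon were alike, with medians of 1189 bases for math genes and 1126 bases for bath genes in the WBcel235 annotation, which has a length for 85 of the 86 members. For some members that length is more than the whole gene spans in the deposited table, as for math-22 (1296 bases of exon, listed at 1905434 to 1905919). Levels per kilobase of such members thus depend on the annotation used. The same annotation calls 11 members pseudogenes, all of them math genes.

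Per kilobase, 28 bath genes and 4 math genes reached 1 CPM, and 18 bath genes and 1 math gene reached 10 CPM. The median level was 0.0785 CPM per kilobase for math genes, 7.54 for bath genes and 0.426 for all genes with a length. Other families of substrate adaptors with many copies gave 0.0774 for 192 fbxa genes, 0.0834 for 110 fbxb genes, 0.0478 for 53 fbxc genes and 0.992 for 21 btb genes. These F-box proteins serve SCF ligases, which use CUL-1 in place of CUL-3, and btb genes encode BTB proteins. The math median thus lay near the F-box medians, and the bath median above those of all these families. These are descriptions of single medians, without a test.

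The most abundant member per kilobase was bath-41 (F37A4.9, chromosome III, 6720594 to 6722202). Positions here are those of the deposited table, which names no build. Transcripts of bath-41 were at 219 and 218 CPM per kilobase in met-2;him-8, against 230 and 202 in him-8, a mean above that of 96.8% of genes with a length. Its level differed between genotypes by less than it differed between the him-8 replicates.

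Transcripts of bath-40 (Y105E8B.4, chromosome I, 14647782 to 14651010) were at 213 and 266 CPM per kilobase in met-2;him-8, against 187 and 171 in him-8. The higher values were thus in met-2;him-8, without overlap. The log2 ratio between the genotypes was 0.42 (SE 0.21), and its Benjamini-Hochberg adjusted p over all genes tested by edgeR's quasi-likelihood method was 0.886, so that the difference did not pass the test.

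Transcripts of bath-42 (C50C3.8, chromosome III, 8161801 to 8163261) were at 169 and 154 CPM per kilobase in met-2;him-8, against 162 and 186 in him-8, and the genotypes overlapped. The 3 leading genes, bath-41, bath-40 and bath-42, lay apart from the next in order, bath-30, whose libraries ranged from 87.3 to 123 CPM per kilobase. Within the leading 3, libraries of neighbouring genes overlapped.

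The next in order were bath-30, bath-5, math-33, bath-15 and bath-28. Transcripts of bath-30 were at 123 and 91.5 CPM per kilobase in met-2;him-8, against 87.3 and 96.4 in him-8. Those of bath-5 were at 100 and 114 in met-2;him-8, against 86.4 and 82.6 in him-8. Transcripts of bath-28 were at 63.8 and 120 in met-2;him-8, against 56.5 and 45.2 in him-8. Among bath-30, bath-5 and bath-28, the last 2 had genotypes that did not overlap, with log2 ratios of 0.34 (SE 0.22) for bath-5 and 0.85 (SE 0.37) for bath-28.

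Transcripts of bath-15 (C08C3.2, chromosome III, 7774815 to 7775949) were at 93.4 and 72.6 CPM per kilobase in met-2;him-8, against 85.6 and 85.3 in him-8. The log2 ratio of bath-15 was -0.042 (SE 0.24). Transcripts of bath-43 (T16H12.5, chromosome III), eleventh in order, were at 58.2 and 53.8 CPM per kilobase in met-2;him-8, against 55.1 and 49.2 in him-8, with a log2 ratio of 0.10 (SE 0.22). For both genes the libraries of the genotypes overlapped.

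The deubiquitinase gene math-33 (H19N07.2, chromosome V, 11114026 to 11118135) had the most reads of all members and was sixth per kilobase. It was at 257 and 454 CPM in met-2;him-8, against 342 and 415 CPM in him-8. The met-2;him-8 replicates differed more from each other than the genotype means did. The log2 ratio was -0.089 (SE 0.32, edgeR quasi-likelihood adjusted p = 0.984), and it was 0.27 without met-2;him-8 replicate 1 and 0.063 without him-8 replicate 2.

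**Figure D1:**
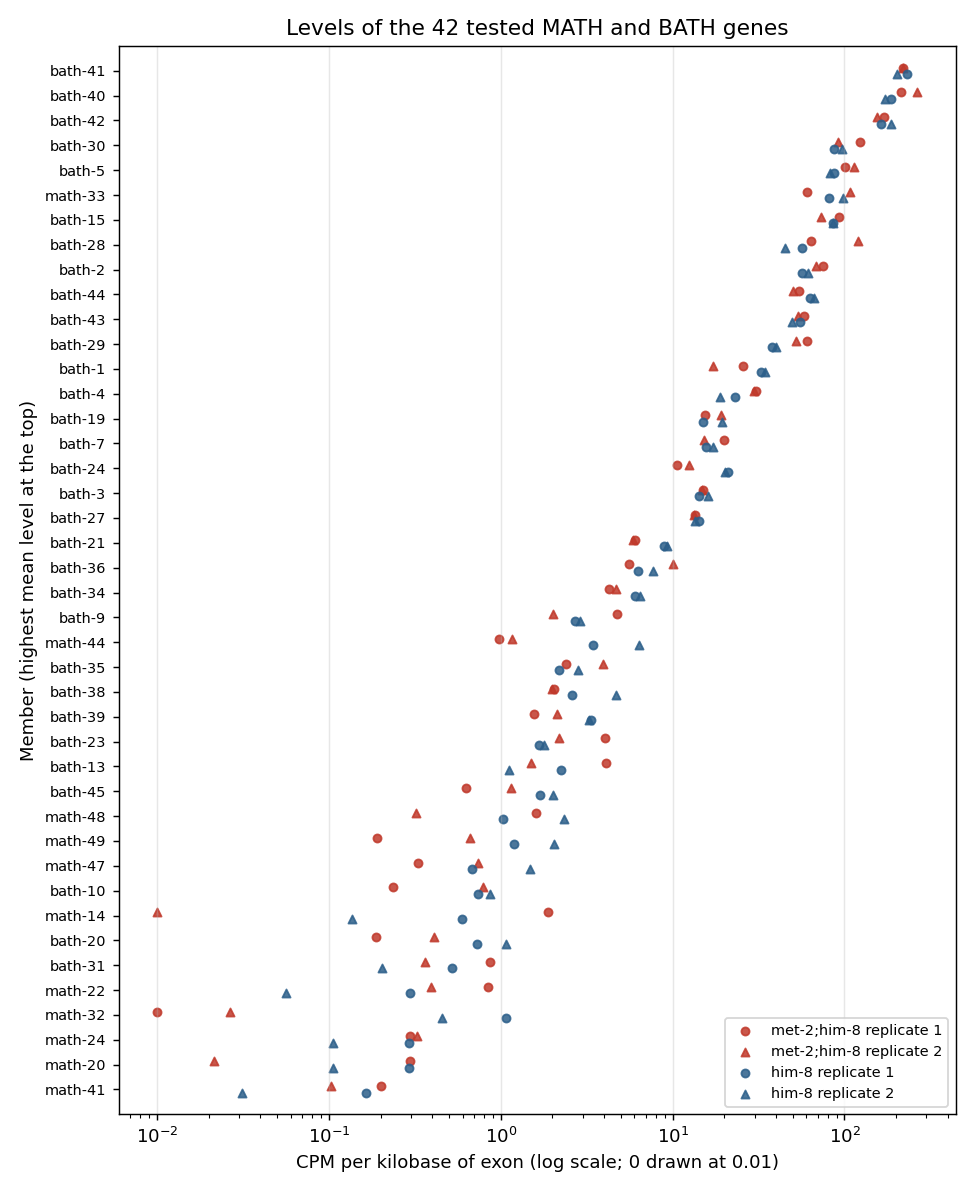
Levels of the 42 members that passed the expression filter, as CPM per kilobase of exon on a log axis, with 1 point per library, met-2;him-8 in red above him-8 in blue, and circles and triangles for replicates 1 and 2. Members are ordered by mean level, from bath-41 at 217 to math-41 at 0.125, and the 4 libraries spread more widely at the low end, where a value of 0 is drawn at 0.01.

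Most members lay on chromosome II, which held 72 of the 86, 46 math genes and 26 bath genes, against 3529 of all 20389 genes. Of the other adaptor families it held 62 of 110 fbxb, 39 of 53 fbxc, 18 of 21 btb and 19 of 192 fbxa genes. Most fbxb, fbxc and btb genes thus lay there too. Members whose neighbours lay within 100000 bases were joined into runs. The largest run, from math-29 to math-18 (chromosome II, 1706715 to 2155056), spanned 448 kb and held 53 members, 43 math genes and 10 bath genes. The 10 bath genes of this run all lay on the minus strand, and all 10 had enough reads to be tested, with a median of 2357 reads in the 4 libraries together (133 to 11551). The 43 math genes around them, 27 on the plus and 16 on the minus strand, had a median of 12 reads (0 to 293), and 10 were tested. Per kilobase of exon the bath genes of the run had a median of 17.1 CPM (0.597 to 95.8), and the 42 math genes of the run with a length had a median of 0.0785 CPM (0 to 2.98), so that the medians lay far apart and the ranges overlapped at their ends.

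The transcribed bath genes of the run stood in a pair of blocks, bath-4, bath-7 and bath-2 in the first and bath-21, bath-1, bath-3, bath-5, bath-19, bath-20 and bath-24 in the second, with math genes between and on both sides. Of the 88 other genes within the run, 27 were tested, and their median reads were 9. A second run of 7 members on the same chromosome, from bath-28 to bath-9 (3343789 to 3378652), held bath genes only, all of them tested, with a median of 2754 reads. Another run of 6 members, from math-45 to bath-33 (1510328 to 1606150), held 2 math and 4 bath genes with a median of 6.5 reads, and none of its members could be tested. The bath genes of this run, bath-26, bath-33, bath-46 and bath-47, had 6, 2, 2 and 16 reads in total.

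**Figure D2:**
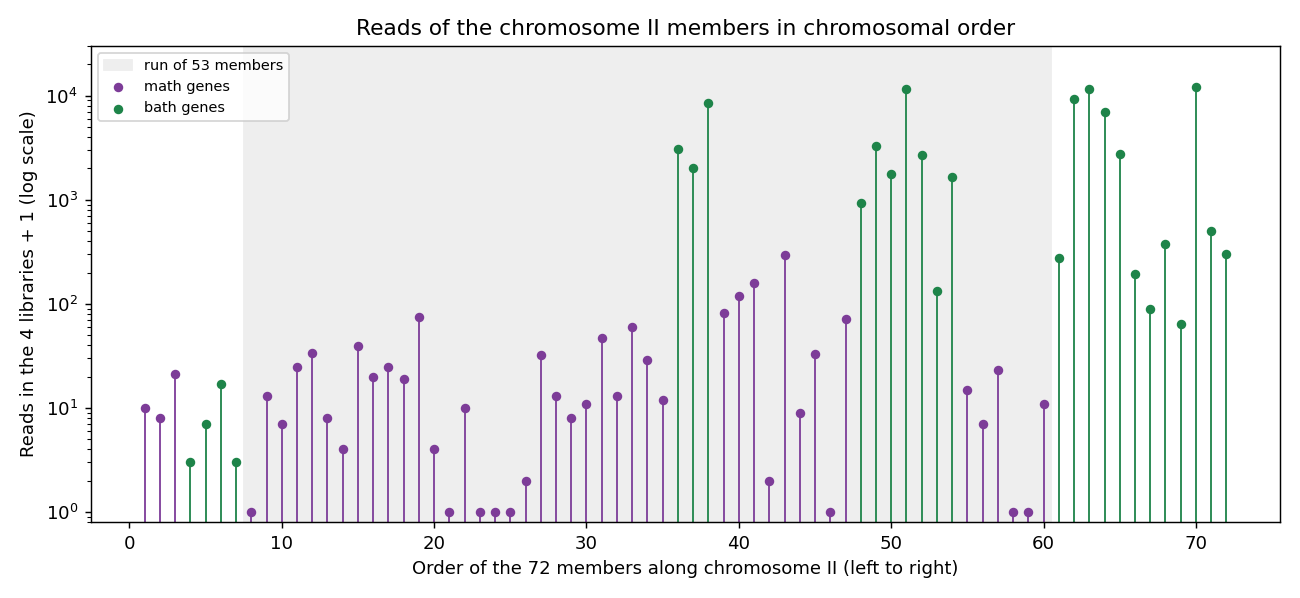
Reads of the 72 members on chromosome II, summed over the 4 libraries plus 1 on a log axis, in chromosomal order, with math genes in purple, bath genes in green and the run of 53 members shaded. In the shaded run the 10 bath genes stand at 133 to 11551 reads and the math genes at 0 to 293.

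Detection followed depth. At least 3 reads were counted for 50 and 51 members in the met-2;him-8 libraries, against 62 and 44 in the him-8 libraries, and for 37 members in all 4. At a shared minimum of 0.219 CPM, the level of 3 reads in the shallowest library, the numbers were 48 and 44 in met-2;him-8, against 49 and 44 in him-8. The summed level of all members was 2150 and 2375 CPM in met-2;him-8, against 2103 and 2166 CPM in him-8, and the 8 members with the most reads held 76.8% of the reads. The higher of the met-2;him-8 sums lay above both him-8 sums, and the lower one between them. The 48 math genes other than math-33 summed to 12.8 and 6.57 CPM in met-2;him-8, against 12.9 and 16.1 CPM in him-8, and the highest met-2;him-8 sum was nearly level with the lowest him-8 sum.

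Of the 86 members, 8 were listed at 0 in every library: math-5, math-11, math-16, math-17, math-19, math-29, math-36 and math-37. All 69 genes of the table with rpl or rps names, which encode ribosomal proteins and are used by every cell, were also listed at 0, so that a 0 in this table is not in every case a measured absence. The share listed at 0 was 9.30% for the members and 15.9% for all genes.

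Of the 78 members with reads, 15 were at 0 in both met-2;him-8 libraries (19.2%, against 12.2% of 17144 genes with reads), and 3 at 0 in both him-8 libraries (3.85%, against 5.09% of genes). The him-8 libraries held 64103791 reads together and the met-2;him-8 libraries 54327098. The 15 members had 1 to 14 him-8 reads, with a median of 6, and the 3 members had 2 to 9 met-2;him-8 reads. Only 3 of these genes reached 10 reads. Transcripts of math-1 had 0 and 0 reads in met-2;him-8, against 12 and 2 in him-8, those of math-8 had 0 and 0, against 12 and 0, and those of math-25 had 0 and 0, against 9 and 1. The smallest detectable amount was taken as 3 reads over the whole met-2;him-8 genotype. If each listed 0 is a count, the him-8 levels of these genes were 3.75-fold, 3.21-fold and 2.68-fold that amount. Nearly all of the him-8 reads of these 3 genes came from replicate 1, the deepest library. Scaled to depth, math-1 was at 0.412 and 0.261 CPM per kilobase in him-8 replicates 1 and 2. There math-25 was at 0.140 and 0.0590, and math-8 at 0.185 and 0. The ratios take the few him-8 reads as exact and leave out their counting error and the spread between replicates.

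Replicates of one genotype disagreed for several low math genes. Among the 43 members with 10 or more reads in 1 met-2;him-8 library, 5 had 0 reads in the other, against 7.94% of all genes so chosen. They were math-7 (26 and 0 reads), math-14 (39 and 0), math-30 (23 and 0), math-35 (19 and 0) and math-28 (0 and 11), identified after their values were seen. In 4 of the 5 the reads were in replicate 1, which had the lower total of the genotype. In him-8 this held for 2 of 49 members, bath-47 (15 and 0 reads) and math-8 (12 and 0), against 3.86% of genes. How reads shared by near-identical members were assigned is not stated, so that counts of single members of this family are uncertain to that extent. Levels per kilobase of math-20 and math-24, named after their values were seen, were equal in every library but met-2;him-8 replicate 2. There they were at 0.0216 and 0.324 CPM per kilobase. Whether shared reads account for this was not tested. In the counts below, math-24 is a tested member that was higher in met-2;him-8 without overlap.

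Genes were tested between genotypes with edgeR's quasi-likelihood test, which used 10875 genes with enough reads, and all ratios put met-2;him-8 over him-8, so that a negative value stands for a lower level in met-2;him-8. The filter was passed by 42 members, 31 bath genes and 11 math genes. The 44 others, 38 of them math genes, had at most 33 reads in total. No member was called at an adjusted p below 0.05 (0 of 42, where 0.0% of all tested genes were called), and the lowest adjusted p of a member was 0.886. At an unadjusted p below 0.05 there were 2 members, math-44 and math-32, both lower (background 3.01% of tested genes lower and 1.83% higher). DESeq2's Wald test gave an adjusted p for 36 of the 42 members and called 0 of them. Of 9610 genes with such a value it called 0.146% lower and 0.125% higher. By the same test 3 members had an unadjusted p below 0.05, a count without a background, since the share of all genes was not taken. The median log2 ratio was -0.0067 over the 42 members and 0.021 over all tested genes, and 21 members had a positive and 21 a negative value.

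Libraries of the genotypes did not overlap for 22 tested members. The met-2;him-8 values were both under the him-8 values for 13 members (31.0%, against 19.8% of all tested genes), and above them for 9 (21.4%, against 16.9%). Of the 13, 9 had under 1000 reads in total, and of the 9, 6 had 1000 or more. These shares are for 2 libraries against 2. With any 1 library left out, more members lay wholly below and more wholly above, since a single library is more easily apart from the others. The shares of all genes in those fits were not taken, so such counts have no background. With 2 libraries on each side, an exact permutation test (two-sided) allows no p under 0.33.

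The members with the most negative fold changes, among those with 10 or more reads in 2 libraries, were math-44, math-49, bath-20, bath-45 and math-47. Transcripts of math-44 (Y16E11A.1, chromosome II, 1987290 to 1990329) were at 0.881 and 1.05 CPM in met-2;him-8, against 3.12 and 5.77 CPM in him-8, from 17 and 35 reads, against 162 and 79 reads. The genotypes did not overlap, and the log2 ratio was -2.19 (SE 0.61, unadjusted p = 0.015, edgeR quasi-likelihood adjusted p = 0.886). For math-44 the adjusted p was 0.293 by DESeq2 and 0.103 by edgeR with the replicate number as a block. When single libraries were left out the log2 ratio stayed between -2.58 and -1.68.

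Transcripts of math-49 (ZK250.7, chromosome II, 1953685 to 1955673) were at 0.259 and 0.900 CPM in met-2;him-8, against 1.64 and 2.78 CPM in him-8. Its log2 ratio was -1.88 (SE 0.88), and it was -3.06 without met-2;him-8 replicate 2 and -1.26 without met-2;him-8 replicate 1. Beside it lay math-47, at 0.311 and 0.690 CPM in met-2;him-8 against 0.636 and 1.39 CPM in him-8, and math-48, with 29 and 10 reads in met-2;him-8 against 50 and 30 reads in him-8. In math-47, which the annotation calls a pseudogene, and in math-48, named here as a neighbour after its values were seen, the genotypes overlapped. The log2 ratios were -0.97 (SE 0.94) for math-47 and -0.81 (SE 1.04) for math-48. Leaving out single libraries put math-47 between -1.65, without met-2;him-8 replicate 2, and -0.33, without him-8 replicate 2.

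Transcripts of bath-20 (B0047.1, chromosome II, 2040373 to 2041620) were at 0.363 and 0.780 CPM in met-2;him-8, against 1.39 and 2.05 CPM in him-8, with a log2 ratio of -1.55 (SE 0.80). It ranged from -2.22, without met-2;him-8 replicate 2, to -1.10, without met-2;him-8 replicate 1. Its neighbours bath-24, bath-1 and bath-21, named after their values were seen, also had their him-8 values above both met-2;him-8 values. Transcripts of bath-24 were at 8.81 and 10.4 CPM in met-2;him-8, against 17.5 and 16.7 CPM in him-8, with a log2 ratio of -0.83 (SE 0.33). The genes between them in the same block, bath-3, bath-5 and bath-19, did not share this: the log2 ratios were -0.019, 0.34 and 0.0058.

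Transcripts of bath-45 (F29C12.5, chromosome II, 13122968 to 13124719), which lies far from the runs, were at 1.14 and 2.10 CPM in met-2;him-8, against 3.09 and 3.65 CPM in him-8. Its log2 ratio was -1.04 (SE 0.59, edgeR quasi-likelihood adjusted p = 0.891), and it was -1.57 without met-2;him-8 replicate 2 and -0.66 without met-2;him-8 replicate 1. The largest fold change of any tested member belonged to math-32 (F59H6.4, chromosome II, 2010655 to 2013391), which was outside the rule for low reads and is named for its unadjusted p. It had 0 and 1 reads in met-2;him-8, against 63 and 7 reads in him-8. The log2 ratio was -5.31 (SE 1.45, unadjusted p = 0.014, edgeR quasi-likelihood adjusted p = 0.886), a value that depends on how the fit treats counts near 0. The annotation calls math-32 a pseudogene, and it overlaps F59H6.6. The library kit named in the labels does not keep strand, so reads of overlapping genes cannot be told apart.

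The members with the most positive fold changes under the same rule were math-22, math-14, bath-28, bath-23 and bath-13. Transcripts of bath-28 (F14D2.13, chromosome II, 3343789 to 3344937) were at 67.6 and 127 CPM in met-2;him-8, against 59.8 and 47.9 CPM in him-8. The genotypes did not overlap, but the 2 met-2;him-8 libraries stood far apart. For bath-28 the log2 ratio was 0.85 (SE 0.37, edgeR quasi-likelihood adjusted p = 0.886), and it ranged from 0.32 to 1.25 when single libraries were left out, the lowest without met-2;him-8 replicate 2.

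Transcripts of bath-23, in the same run as bath-28, were at 2.95 and 1.59 CPM in met-2;him-8, against 1.22 and 1.32 CPM in him-8, with a log2 ratio of 0.84 (SE 0.65), and of 0.35 without met-2;him-8 replicate 1. Transcripts of math-22 were at 1.09 and 0.510 CPM in met-2;him-8, against 0.386 and 0.0731 CPM in him-8, with a log2 ratio of 1.65 (SE 1.15), from 1 to 21 reads per library. That ratio was 3.33 without him-8 replicate 1 and 0.96 without met-2;him-8 replicate 1. In bath-23 and math-22 the met-2;him-8 values were the higher ones, without overlap. For bath-13, at 4.30 and 1.56 CPM in met-2;him-8 against 2.33 and 1.17 CPM in him-8, the genotypes overlapped. For math-14 the positive fold change came from met-2;him-8 replicate 1 alone: the log2 ratio was 1.25 (SE 2.01), and -6.83 without that library.

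**Figure D3:**
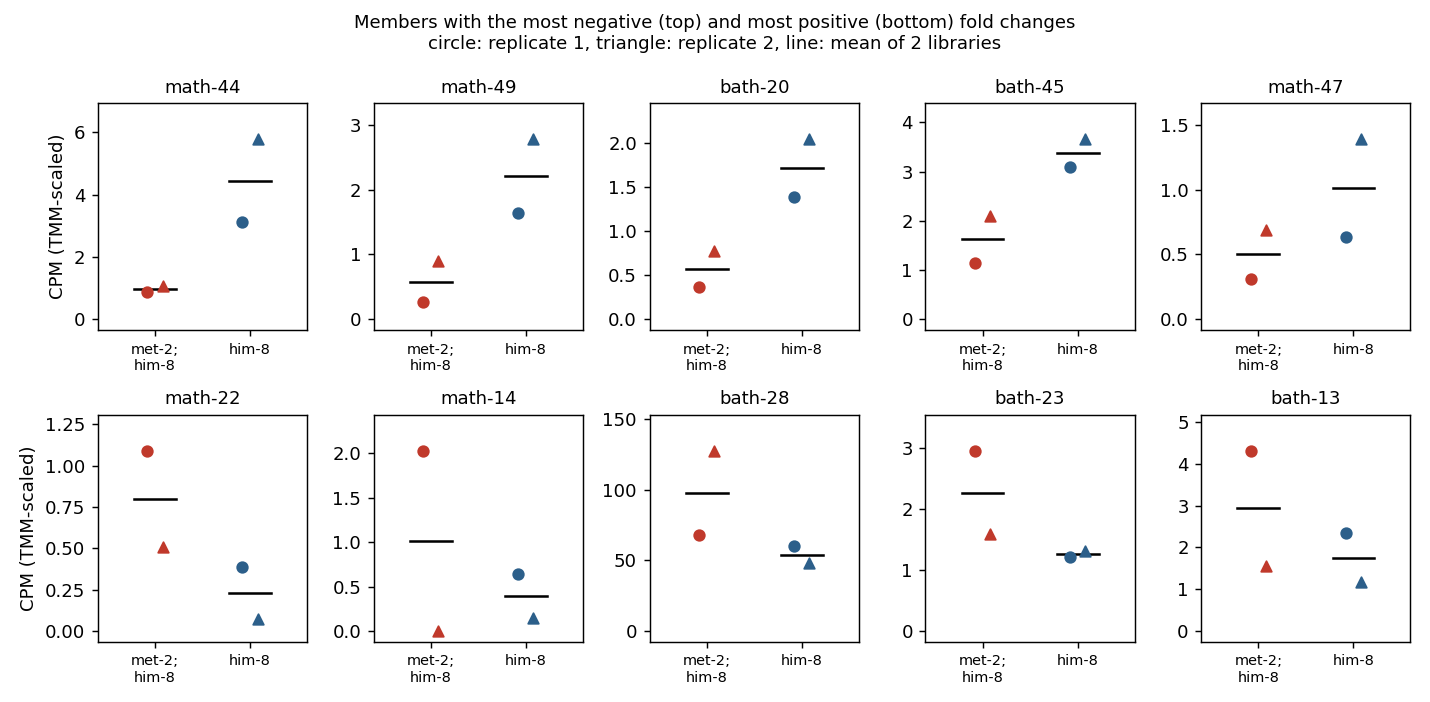
TMM-scaled CPM of the 5 members with the most negative (top) and the 5 with the most positive (bottom) log2 ratios among those with 10 or more reads in 2 libraries, with met-2;him-8 left of him-8, 1 point per library and a line at the mean of 2 libraries. In math-44 the met-2;him-8 libraries sit at 0.881 and 1.05 CPM below him-8 at 3.12 and 5.77 CPM, and in math-14 the met-2;him-8 libraries sit at 2.02 and 0 CPM.

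Precision followed the number of reads. For the 20 tested members with 1000 or more reads in total, 19 bath genes and math-33, the standard error (SE) of the log2 ratio had a median of 0.26 and the fold changes lay, on the log2 scale, between -0.83, in bath-24, and 0.85, in bath-28. For the 22 with fewer reads the median standard error was 0.84. Of the 11 math genes that were tested, math-33 alone had 1000 or more reads.

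**Figure D4:**
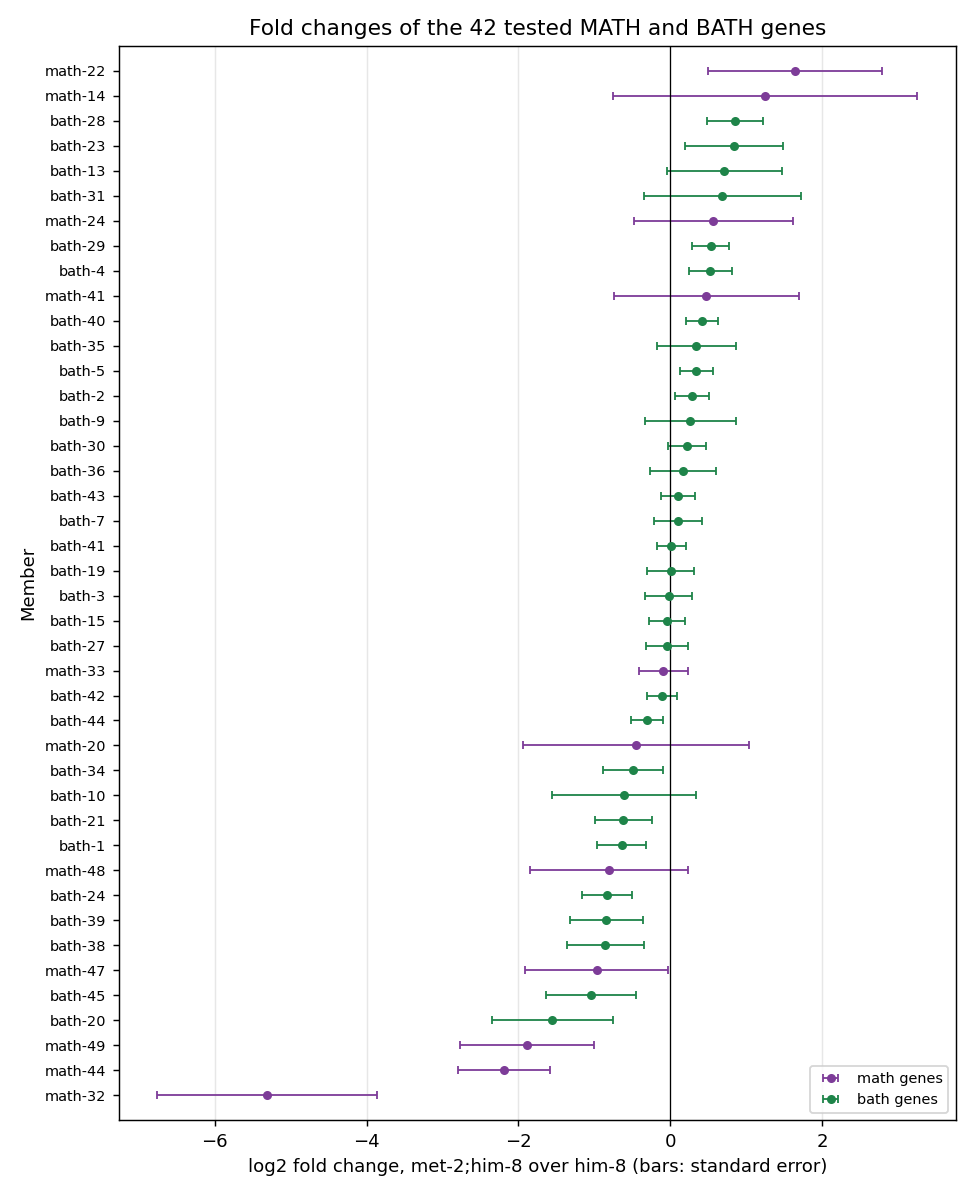
Log2 ratios between the genotypes for the 42 tested members, with standard errors as bars, math genes in purple and bath genes in green. Most bath genes lie near 0 with short bars, and the extremes, math-32 at -5.31 and math-22 at 1.65, have long ones.

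The genes around the members in the largest run were compared in the same way. Among its 20 tested members, 7 were wholly lower in met-2;him-8 and 5 wholly higher, where 19.8% of all tested genes were wholly lower and 16.9% wholly higher, and their median log2 ratio was -0.24. Among its 27 other tested genes, 8 lay below and 6 above, with a median of 0.0038. In the run from bath-28 to bath-9, 1 of 7 members lay below and 3 above (the same 19.8% and 16.9% apply), with a median of 0.27. Among the 4 other tested genes of that run, 2 lay below and 0 above, with a median of -0.33. These counts and medians were not tested against each other.

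The genes of the CUL-3 ligase and the MEL-26 pathway gave no call, where edgeR called 0.0% of all tested genes. The list covers CUL-3 and its adaptors, its activation by NED-8, the COP9 signalosome that reverses it, and the MEL-26 pathway, with katanin (mei-1 and mei-2), the phosphatase subunit gene ppfr-1 and the kinase gene mbk-2. Of its 28 genes, 25 were in the table and all 25 were tested. By edgeR and by DESeq2 0 of them were called and 1 had an unadjusted p below 0.05 in each. DESeq2 called 0.146% of all its genes lower and 0.125% higher, so 0 calls do not set this list apart. At an unadjusted p below 0.05 edgeR had 3.01% of all tested genes lower and 1.83% higher. That share was not taken for DESeq2. The median log2 ratio of the list was -0.025. Transcripts of cul-3, the scaffold, were at 362 and 443 CPM in met-2;him-8, against 365 and 412 CPM in him-8. Those of mel-26 were at 282 and 171 CPM in met-2;him-8, against 277 and 297 CPM in him-8, with a log2 ratio of -0.34 (SE 0.29). Per kilobase mel-26 averaged 150 CPM, a level between bath-42 and bath-30.

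Katanin, the MEL-26 substrate, cuts microtubules of the meiotic spindle. Transcripts of mei-1, the catalytic subunit, were at 274 and 338 CPM in met-2;him-8, against 244 and 249 CPM in him-8, with a log2 ratio of 0.31 (SE 0.20). Those of mei-2, its partner, were at 302 and 217 CPM in met-2;him-8, against 211 and 271 CPM in him-8, with a log2 ratio of 0.11 (SE 0.26). The genotypes overlapped for mei-2 but not for mei-1. The gene with an unadjusted p below 0.05 was ned-8, which encodes the ubiquitin-like protein that activates cullins. It was at 47.3 and 37.9 CPM in met-2;him-8, against 63.8 and 113 CPM in him-8, with a log2 ratio of -1.05 (SE 0.36, edgeR quasi-likelihood adjusted p = 0.886). The 5 other cullins and the 6 deubiquitinases of the list gave 0 calls by edgeR (0.0% of all tested genes), with medians of -0.088 and -0.22. Of 4 genes listed as TRAF and meprin relatives, 3 were in the table and 1 was tested, with a log2 ratio of -0.15.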

How the data were processed

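The data are 4 mRNA-seq libraries from gonads, 2 met-2;him-8 and 2 him-8. Reads were aligned by the authors with STAR and analysed with Cuffdiff 2.2.1. Per library and gene, the authors deposited an estimated count, not scaled to depth, beside a table with 1 RPKM value per genotype made by the authors from both replicates. Its fold changes, p-values and q-values hold the authors' comparison and were not used. The tool behind the counts is not given in the sources used here. The few counts that were not whole were rounded.

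Testing used edgeR's quasi-likelihood functions (version 4.0.16, R 4.3.3) after TMM scaling and filterByExpr, without a replicate block (Benjamini-Hochberg adjustment over all tested genes, threshold 0.05). Standard errors (SE) of edgeR log2 ratios were taken as the size of the ratio over the square root of the quasi-likelihood F statistic. They are approximate, most of all where counts are near 0. DESeq2 1.42.0 was an alternative. Other alternatives were RLE and upper quartile scaling, a robust dispersion, other filters, an adjusted p below 0.1, the replicate block, other detection minimums, scaling of the summed level and each library left out in turn. Exon lengths and pseudogene labels came from Ensembl release 115 of WBcel235, and no coordinates were taken from it. Gene starts were changed to count from 1. The deposited RPKM were used only for an alternative order of the members by level.

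Named members were the 8 highest per kilobase, any called by edgeR, the 5 with the largest fold change in each direction with 10 or more reads in 2 libraries, those at 0 reads in 1 genotype with 10 or more in the other, and math-33, bath-15, bath-40, bath-42 and bath-43. Members and lists were chosen with earlier results of these data known. The replicates are described as separate sets of dissected gonads. Totals of 14255714 to 49848077 reads set the precision. Ratios to the smallest detectable amount leave out the counting error of the genotype with reads and the spread between replicates.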

Additional observations from a re-analysis of the deposited data

How the results depend on the processing

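No member was called under any alternative (0 members), and the lowest adjusted p of a member ranged from 0.103, with the replicate number as a block in edgeR, to 0.9999, without him-8 replicate 2, and 0.99998 without him-8 replicate 1. The same-numbered libraries had deviations from their genotype means that correlated at 0.516 over 10875 genes, but there are only 2 pairs and the labels give no shared origin. With the replicate block 144 genes of the whole table were called (1.32%), 0 of them members but met-2 among them (adjusted p = 5.39e-07), and the median log2 ratio of the members was -0.0053. With no expression filter 78 members were tested and the median was -0.060. On leaving out 1 library at a time, the median ranged from -0.17 to 0.013, the number of members with met-2;him-8 wholly below him-8 from 16 to 22, the number wholly above from 12 to 19, and the members detected in all libraries from 37 to 41. In those fits a genotype with 1 library is assumed to vary like the other. Among 18 named members, 5 changed sign without a library, none of them called. Their log2 ratios ranged from -0.071 (without him-8 replicate 2) to 0.096 for bath-41, from -0.57 to 0.27 for math-33 (0.27 without met-2;him-8 replicate 1 and 0.063 without him-8 replicate 2), from -0.22 to 0.12 for bath-15 (0.12 without met-2;him-8 replicate 2), from -6.83 to 2.71 for math-14 and from -0.19 to 1.30 for bath-13, the lowest of both without met-2;him-8 replicate 1. The other 189 of 195 values kept their sign. The 8 highest members were the same by the authors' RPKM, an order added after the data were seen, and 7 of them were among the 8 highest by CPM without length. Low read numbers limit the math genes most, since 38 of 49 could not be tested. The parts of depth, transcript level and read assignment in this were not tested.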
